A study of Mus musculus with 9 samples.

Results

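The E protein genes Tcf3, Tcf4 and Tcf12 and the inhibitor genes Id1, Id2 and Id3 were followed across 9 RNA-seq libraries of mouse germinal center B cells. The 6 genes were picked by symbol from the deposited gene tables, where they are 6 of 23700 entries, and 5 of the 6 passed the filter on low values (Id1 did not). Each group had 3 libraries. The light zone (LZ) and dark zone (DZ) groups were wild-type cells, Foxo1(+/+) with the CD45.1/1 marker, sorted as CD86hi CXCR4lo and CD86lo CXCR4hi cells respectively. The Foxo1-deficient group was Foxo1(f/f) with the CD45.1/2 marker and was sorted from the whole germinal center gate with no zone gate, so the effects of genotype and of gate cannot be told apart. Every group carried the tamoxifen-inducible ERT2cre(KI/+) and the NP-binding receptor B1-8hi(KI/+), and every group came from C57BL/6 recipients given both kinds of B cell together. The recipients were immunized with NP-CGG in alum on day 0, received tamoxifen by mouth on days 7 to 9, and gave spleen cells on day 12, sorted as B220+ NP+ GL7+ CD38- at about 10000 cells per sample. The labels name CD45.1/2 for the Foxo1(f/f) genotype but a gate negative for CD45.2, and they do not say whether replicates were separate animals. The p-values thus measure no more than how these 3 samples per group vary, and that variation may be technical.

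E proteins are basic helix-loop-helix transcription factors that bind E-box DNA (CANNTG) as pairs, and Id proteins are helix-loop-helix partners that lack the basic region, so that a pair of an E protein and an Id protein does not bind DNA. E protein activity is needed for commitment to the B cell lineage, and in activated B cells it promotes class switching. In Burkitt lymphoma, a tumor of germinal center origin, activating mutations of TCF3 and inactivating mutations of ID3 recur.

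Levels are FPKM, the authors' count of fragments per kilobase of transcript relative to the fragments in the library, a length-normalized unit in which genes can be compared. Changes are differences of group means of log2(FPKM + 1), tested with limma over 10004 genes at a Benjamini-Hochberg adjusted p of 0.05. The targeted gene Foxo1 stood at 14.8, 18.7 and 22.1 FPKM in LZ, 24.5, 19.5 and 19.1 in DZ, and 3.01, 1.79 and 0.808 in the Foxo1-deficient libraries. It fell by 2.82 against LZ (limma adjusted p = 0.00113) and by 3.01 against DZ (limma adjusted p = 0.000542) on the log2 scale. All 9 germinal center B cell markers passed the filter, and their summed level lay between 1545 and 1761 FPKM in the Foxo1-deficient group, between 1309 and 1530 in LZ and between 1139 and 1346 in DZ. DZ replicate 3 had the lowest median of log2(FPKM + 1), at 2.70 against 2.96 to 3.17 in the other 8 libraries. The median change of all tested genes was -0.15 for DZ minus LZ, -0.02 for Foxo1-deficient minus LZ and 0.12 for Foxo1-deficient minus DZ, and member changes are to be read beside these shifts.

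**Figure D1:**
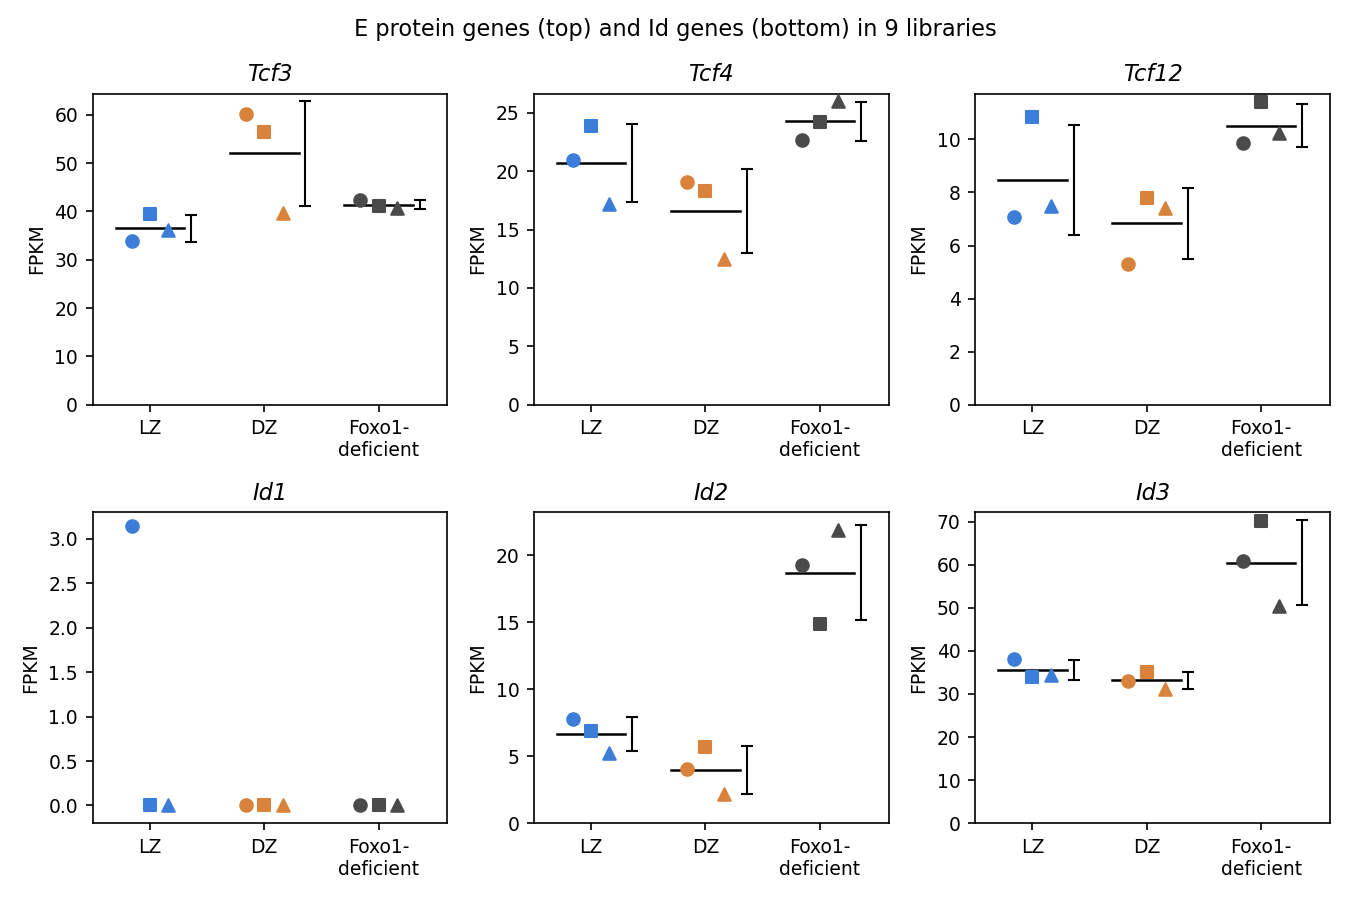
FPKM of the 6 genes in each library, with a panel per gene. Points are libraries (circle, square and triangle for replicates 1 to 3), lines are group means and bars beside them are SD (n = 3), both left out for Id1. Id2 and Id3 are highest in the 3 Foxo1-deficient libraries, Tcf3 is highest in DZ replicates 1 and 2, and Id1 is above 0 in 1 library only.

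Among the E protein genes, Tcf3 was the most abundant in every library and Tcf12 the least, and none of the 3 passed the test in any comparison. Tcf3, which encodes the E2A proteins (mm9 chr10:79871910-79896398), stood at 33.8, 39.4 and 36.2 FPKM in LZ, at 60.1, 56.4 and 39.6 in DZ and at 42.4, 41.2 and 40.7 in the Foxo1-deficient libraries. The DZ mean was 52.0 ± 10.9 FPKM (SD, n = 3) against 36.5 ± 2.81 (SD, n = 3) in LZ, and the groups were separated only by the narrow gap between 39.6 in DZ replicate 3 and 39.4 in LZ replicate 2. The change for DZ minus LZ was 0.48 ± 0.177 (SE; 95% confidence interval 0.09 to 0.87), with a limma adjusted p of 0.223. With each library centred on its own median the same change was 0.67 and passed the test (limma adjusted p = 0.0242). Against the Foxo1-deficient group the Tcf3 intervals spanned 0, at -0.21 to 0.57 with LZ as reference and -0.69 to 0.09 with DZ as reference. As whole-population RNA was measured, fewer cells of a type and less RNA per cell cannot be told apart in these or any of the values that follow.

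Tcf4, which encodes the E protein E2-2 (mm9 chr18:69504146-69847621), was at 21.0, 23.9 and 17.2 FPKM in LZ, 19.1, 18.3 and 12.5 in DZ and 22.7, 24.2 and 26.0 in the Foxo1-deficient libraries. The zones overlapped, and the change for DZ minus LZ was -0.31 (95% confidence interval -0.77 to 0.15, limma adjusted p = 0.545). All 3 Foxo1-deficient libraries lay above all 3 DZ libraries, with a change of 0.54 (0.08 to 1.00) that missed the threshold at a limma adjusted p of 0.225. Tcf12, which encodes the E protein HEB (mm9 chr9:71692059-71959626), was at 7.07, 10.8 and 7.48 FPKM in LZ, 5.32, 7.80 and 7.41 in DZ and 9.87, 11.4 and 10.3 in the Foxo1-deficient libraries. It had the same arrangement as Tcf4, with overlapping zones (change -0.26, limma adjusted p = 0.679) and with the Foxo1-deficient libraries all above DZ (change 0.57, 95% confidence interval 0.03 to 1.10, limma adjusted p = 0.277). Against LZ the changes of Tcf4 and Tcf12 were 0.23 and 0.30, with limma adjusted p of 0.679 and 0.637 and with overlapping libraries in both genes.

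The inhibitor genes Id2 and Id3 rose in the Foxo1-deficient group against DZ, Id2 by 4.70-fold and Id3 by 1.83-fold between mean FPKM. No inhibitor gene passed between the zones, and Id1 was too low to test.

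Because Id2 and Id3 both rose, the 250 bases before the start of each are shown, taken from the RefSeq annotation of GRCm38.p6 (another build than that of the gene tables) and written 5′ to 3′ on the gene's strand. Capitals mark the match to the E-box letters CANNTG, which read the same on both strands. The Id2 window is chr12:25096093-25096342 (minus strand) and the Id3 window is chr4:136143572-136143821 (plus strand).
Id2: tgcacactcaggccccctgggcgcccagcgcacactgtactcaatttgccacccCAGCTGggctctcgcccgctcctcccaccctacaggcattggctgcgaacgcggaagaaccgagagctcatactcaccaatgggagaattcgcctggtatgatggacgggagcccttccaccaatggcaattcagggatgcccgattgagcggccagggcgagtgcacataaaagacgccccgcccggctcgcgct
Id3: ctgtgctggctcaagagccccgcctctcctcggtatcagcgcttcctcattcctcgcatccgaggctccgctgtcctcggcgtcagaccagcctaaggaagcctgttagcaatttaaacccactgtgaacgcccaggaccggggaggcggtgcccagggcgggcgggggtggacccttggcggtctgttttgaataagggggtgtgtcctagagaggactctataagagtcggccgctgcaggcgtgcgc
The Id2 window holds 1 match, CAGCTG, whose first base lies 196 bases before the start, and the Id3 window holds none, while 66.2% of 32851 promoter windows of this length hold at least 1. The letters TGTTTA, searched on both strands as the core of the forkhead motif that FOXO proteins bind, occur in neither window and in 12.0% of all windows. Both windows have a GC content of 62.8%. Of the 6 genes, 4 (Tcf3, Tcf12, Id2 and Id3) were matched by symbol in the promoter table.

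Id3 (mm9 chr4:135699737-135701307) was the most abundant inhibitor gene in every library. It stood at 38.2, 34.0 and 34.4 FPKM in LZ, 33.0, 35.1 and 31.2 in DZ and 60.8, 70.1 and 50.5 in the Foxo1-deficient libraries. The zones overlapped, with a change of -0.10 (95% confidence interval -0.45 to 0.26, limma adjusted p = 0.845) that turned to 0.09 with median centring. Every Foxo1-deficient library lay above every wild-type library, and Id3 rose by 0.84 ± 0.162 (SE) against DZ (limma adjusted p = 0.0191), the 156th smallest p of that comparison. This call was lost, at a limma adjusted p of up to 0.0749, without any 1 of DZ replicates 1 to 3 or Foxo1-deficient replicates 1 and 2. Against LZ the change of 0.74 (95% confidence interval 0.38 to 1.09) fell just short of the threshold, at a limma adjusted p of 0.0501, and passed with quantile normalization (0.0195), with median centring (0.038), without the filter on low values (0.0444) and without Foxo1-deficient replicate 3 (0.0485). The deposited FPKM of Id3 was 1.16 to 1.22 times the midpoint of its own confidence bounds and above the upper bound in 5 of 9 libraries. With the midpoint in its place, an alternative chosen after seeing the data, the change against DZ was 0.81 (limma adjusted p = 0.0194).

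Id2 (mm9 chr12:25778664-25780957) was the member that differed most between groups. It stood at 7.78, 6.85 and 5.27 FPKM in LZ, 4.07, 5.72 and 2.16 in DZ and 19.3, 14.9 and 21.9 in the Foxo1-deficient libraries. The lowest Foxo1-deficient library was above the highest wild-type library, while LZ and DZ overlapped at 5.27 and 5.72. Id2 rose by 2.03 ± 0.303 (SE) against DZ (95% confidence interval 1.37 to 2.70, limma adjusted p = 0.0054), the 60th smallest p of that comparison, and the call held without each library in turn (highest adjusted p 0.0239). Against LZ the change was 1.37 (0.70 to 2.03), a 2.82-fold difference of means, at a limma adjusted p of 0.0537. It passed with quantile normalization (0.0294), with median centring (0.0316) and without DZ replicate 3 (0.035). For DZ minus LZ the change was -0.67 (-1.34 to -0.00), with an unadjusted p of 0.0497 and a limma adjusted p of 0.323. The Id2 values rest on few fragments, an estimated 79 to 122 in the Foxo1-deficient libraries, 27 to 40 in LZ and 18 to 29 in DZ, as read from the Cufflinks bounds.

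Id1 (mm9 chr2:152562010-152563146) was listed at 3.15 FPKM in LZ replicate 1 and at 0 in the other 8 libraries, so it was not tested. That single value corresponds to an estimated 14 fragments. In LZ replicate 1, 7 genes had this pattern of at least the Id1 level there and 0 in every other library, and the other libraries had 4 to 17 such genes each.

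Markers of other cells moved with the Foxo1-deficient group, in which Id2 and Id3 were high. The summed level of 11 myeloid markers was 162, 235 and 319 FPKM in Foxo1-deficient replicates 1 to 3, against 0 to 0.538 in LZ and 0 to 4.93 in DZ. Of the 11, 8 met the filter on low values, and they met it only through the Foxo1-deficient libraries, so their direction was fixed by the filter and no count of calls is drawn from them. Cd14 and Mpo were listed at 0 in all 3 Foxo1-deficient libraries. Lyz2, the lysozyme of macrophages and granulocytes, was at 51.6, 61.2 and 127 FPKM there, and the granulocyte calcium-binding protein gene S100a9 was at 52.5, 56.6 and 80.5. The summed level of 6 erythroid and platelet markers was 195, 163 and 539 FPKM, against 21.9 to 44.4 in LZ and 12.9 to 21.7 in DZ. Most of this sum was Hbb-b2 and Beta-s. The platelet markers were near 0, with Pf4 listed at 0 in all 9 libraries and Itga2b at most at 0.327 FPKM. The globin genes Hbb-b2 and Beta-s, above 1 FPKM in all 9 libraries, rose against both zones. Replicate 3 had the highest sum of both lists, the highest Id2 and the lowest Id3 of the 3 libraries. Without replicate 3 the change against DZ was 1.92 for Id2 (limma adjusted p = 0.0231) and 0.96 for Id3 (limma adjusted p = 0.0204). DZ replicate 3, the wild-type library with the highest myeloid sum (4.93 FPKM), had the lowest Id2 and Id3 of all 9 libraries. It also had the lowest median of log2(FPKM + 1), at 2.70, so its low Id2 and Id3 cannot be told apart from its lower values in general. The part of these cells in the Id2 and Id3 values was not tested.

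**Figure D2:**
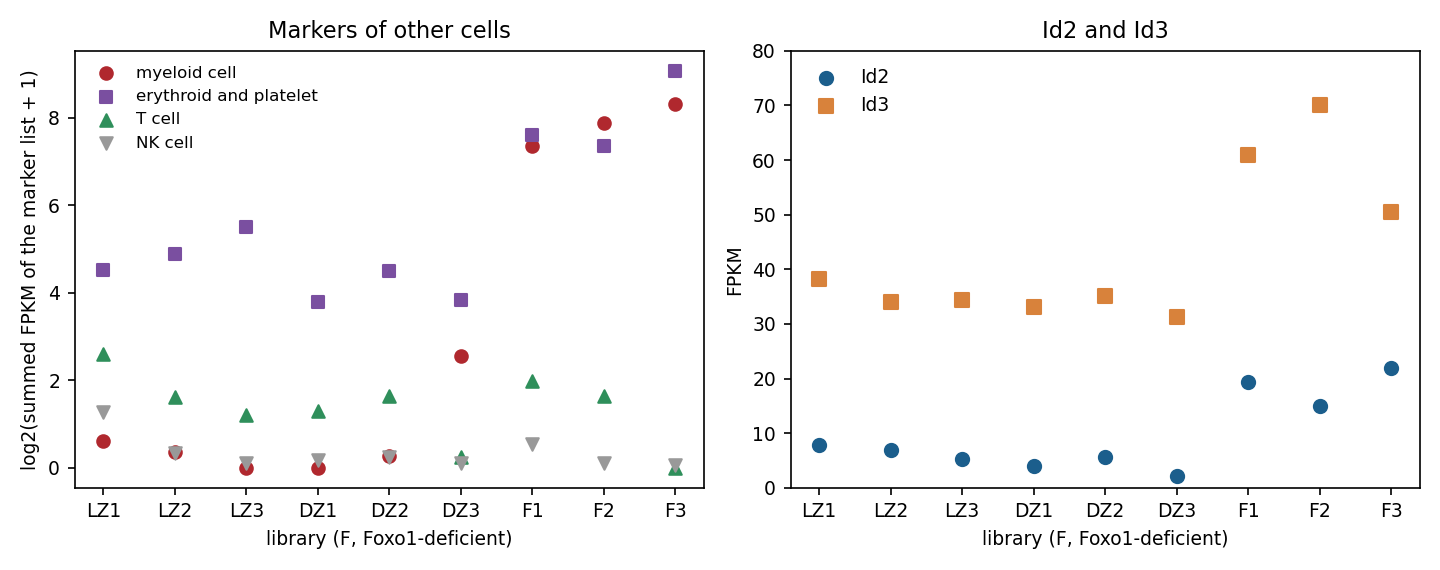
Left, log2(summed FPKM + 1) of 4 lists of cell type markers in each library. Right, FPKM of Id2 and Id3 in the same libraries. The myeloid sum and that of the erythroid and platelet list, which is mostly Hbb-b2 and Beta-s, are highest in the 3 Foxo1-deficient libraries (F). Id2 and Id3 are highest there too, whereas the T cell sum is at most 5.11 FPKM and the NK cell sum at most 1.42 FPKM in any library.

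T cells and NK cells also express Id2, and their defining markers were near 0. Cd3e, Cd3g and Cd4 were listed at 0 in all 9 libraries, as were the NK cell genes Ncr1, Klrd1 and Gzma. The 8 T cell markers summed to between 0 and 2.97 FPKM in the Foxo1-deficient group, between 1.33 and 5.11 in LZ and between 0.182 and 2.10 in DZ. The dendritic cell sum lay between 14.3 and 18.2 FPKM in the Foxo1-deficient group, 10.1 and 25.3 in LZ and 6.58 and 11.4 in DZ, and most of it was Flt3. Itgax, which encodes CD11c, was between 1.21 and 3.18 FPKM in the Foxo1-deficient libraries, listed at 0 in LZ and at most 0.0819 in DZ (limma adjusted p = 0.0448 against DZ), and met the filter only through the former. Stromal and endothelial markers summed to between 8.80 and 16.9, 7.44 and 12.4, and 4.22 and 5.24 FPKM in the same order. Most of this sum was the adhesion gene Pecam1, which rose against DZ (limma adjusted p = 0.0485). The other markers of this list were near 0. Col1a1 and Col3a1 were listed at 0 in all 9 libraries, and Col1a2, Kdr and Cdh5 were at most at 0.252, 0.103 and 0.661 FPKM. Plasma cell markers summed, again in that order, to between 235 and 357, 127 and 151, and 189 and 291 FPKM, and naive and memory B cell markers to between 8.99 and 12.8, 9.59 and 16.2, and 3.16 and 5.01.

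In counts, 0 of the 5 tested members passed for DZ minus LZ (194 genes in all, 1.94% of those tested), and Tcf3 and Id2 were under an unadjusted p of 0.05, as were 1542 genes. For Foxo1-deficient minus LZ, 0 of 5 passed (156 genes, 1.56%), with Id2 and Id3 among 1343 genes under an unadjusted p of 0.05. For Foxo1-deficient minus DZ, 2 of 5 passed, both higher (285 genes, 2.85%, of which 210 or 2.10% were higher). Tcf4 and Tcf12, also higher there, were with Id2 and Id3 among 1629 genes under an unadjusted p of 0.05. Groups did not overlap for 1 of 5 members in DZ against LZ (22.3% of tested genes), for 3 of 5 in Foxo1-deficient against LZ (17.5%) and for 4 of 5 in Foxo1-deficient against DZ (23.1%). The comparisons share libraries, so their values are set side by side here and not counted as separate evidence.

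**Figure D3:**
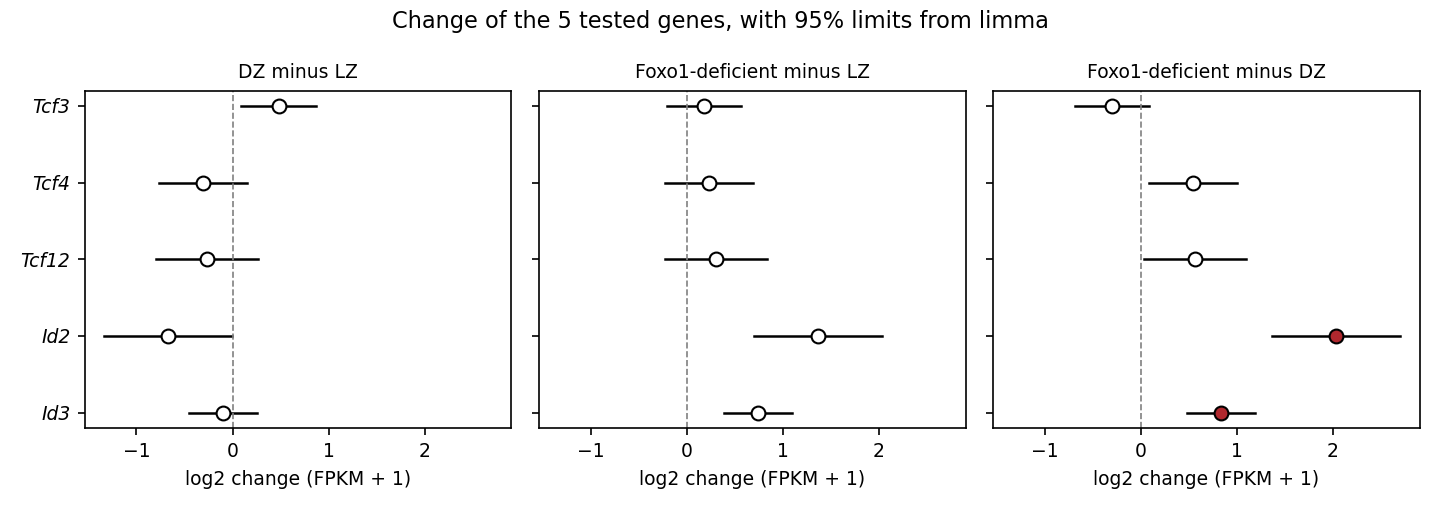
Change of log2(FPKM + 1) for the 5 tested genes in the 3 comparisons, with points for the change and lines for its 95% confidence interval. Filled points have a limma adjusted p under 0.05. Id2 and Id3 in Foxo1-deficient minus DZ are the calls, at 2.03 and 0.84.

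The order of levels also differed between groups. In all 3 DZ libraries it ran Tcf3, Id3, Tcf4, Tcf12, Id2, Id1, and in all 3 Foxo1-deficient libraries Id3, Tcf3, Tcf4, Id2, Tcf12, Id1. The LZ libraries were mixed, since Id3 was first in replicate 1 and Tcf3 first in replicates 2 and 3, and Id2 and Tcf12 also changed places. The first place of Id3 in LZ replicate 1 rested on the deposited FPKM. At the midpoints of the confidence bounds Tcf3 was at 33.9 and Id3 at 32.5 in that library. In LZ the means of Tcf3 (36.5 ± 2.81 FPKM) and Id3 (35.6 ± 2.32, both SD, n = 3) differed by less than their spread. Those of Tcf12 (8.47 ± 2.07) and Id2 (6.63 ± 1.27) differed by less than the SD of Tcf12 but more than that of Id2.

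The balance of the family was taken as the summed FPKM of the 3 E protein genes over that of the 3 Id genes, as a description with no test. It was 1.26, 1.81 and 1.53 in LZ, 2.28, 2.02 and 1.78 in DZ and 0.935, 0.904 and 1.06 in the Foxo1-deficient libraries. The means were 1.54 ± 0.278, 2.03 ± 0.248 and 0.967 ± 0.0846 (SD, n = 3 each). These ratios use the deposited FPKM, which for Id3 was 1.16 to 1.22 times the midpoint of its confidence bounds. For the E protein genes that factor was 0.997 to 1.0. Ratios on midpoints would thus be higher and were not computed. The Foxo1-deficient libraries all lay below the wild-type ones, and the zones overlapped, since LZ replicate 2 was above DZ replicate 3. On the log2 scale the group differences were 0.41 for DZ minus LZ, -0.65 for Foxo1-deficient minus LZ and -1.06 for Foxo1-deficient minus DZ.

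**Figure D4:**
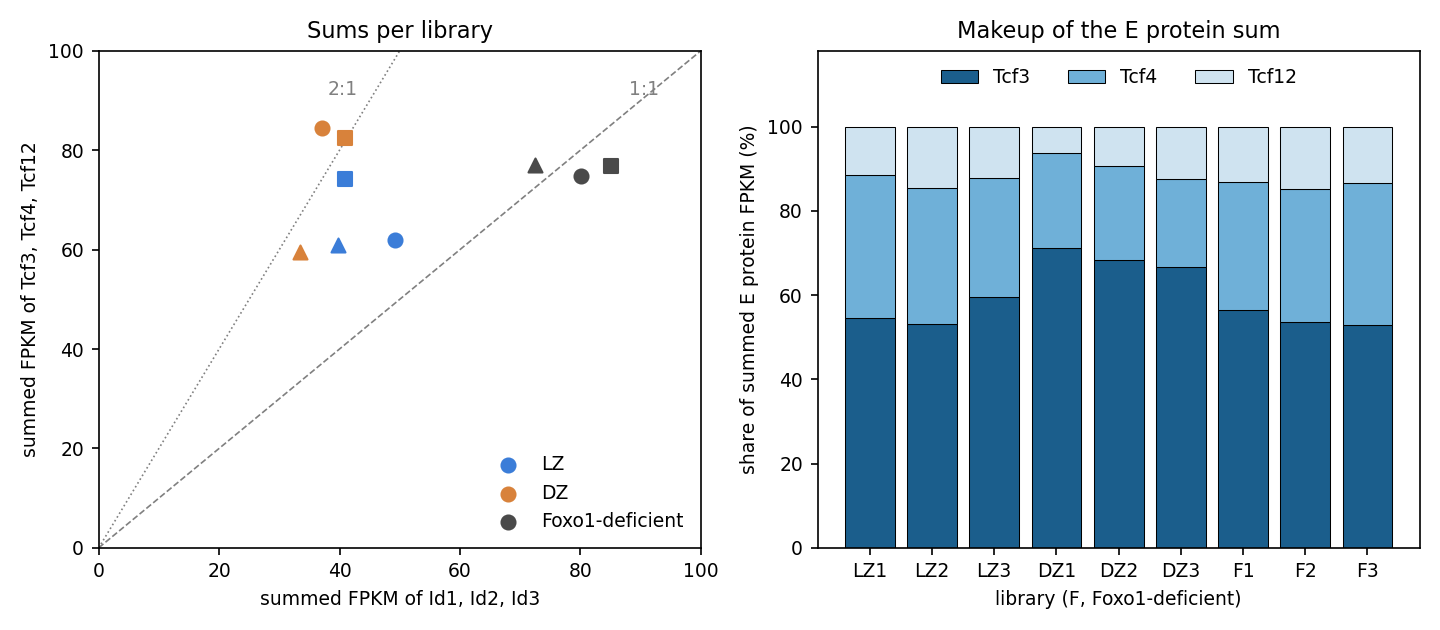
Left, summed FPKM of the E protein genes against that of the Id genes, with a point per library (shapes are replicates 1 to 3), a dashed line at a ratio of 1 and a dotted line at 2. Right, the percent share of Tcf3, Tcf4 and Tcf12 in the E protein sum of each library. The Id sum is 72.4 to 85.0 FPKM in the Foxo1-deficient libraries (F) and 33.4 to 49.1 in the others, and the Tcf3 share is highest in the 3 DZ libraries.

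The Id sums of the Foxo1-deficient libraries lay apart from those of the wild-type libraries, and the E protein sums overlapped. The Id sum was 43.2 ± 5.15 FPKM in LZ, 37.1 ± 3.71 in DZ and 79.2 ± 6.37 in the Foxo1-deficient group, and the E protein sum was 65.6 ± 7.38, 75.5 ± 13.9 and 76.2 ± 1.15 (SD, n = 3 each). Between the zones, the sign of the difference rested on Tcf3: without it the log2 difference for DZ minus LZ was -0.09. Without Id3, the differences against the Foxo1-deficient group were larger, at -1.11 with LZ and -2.29 with DZ as reference. With means of log2 levels in place of sums, which give every gene the same weight, they were -0.24 and -0.69. Id1, listed at 3.15 FPKM in LZ replicate 1 and at 0 in the other 8 libraries, thus weighs as much as Id2 or Id3 there. Means without Id1 were not computed.

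The make-up of the E protein sum separated DZ from the other groups. Tcf3 was 71.1%, 68.4% and 66.6% of the E protein FPKM in DZ, 54.7%, 53.2% and 59.5% in LZ and 56.6%, 53.7% and 52.9% in the Foxo1-deficient libraries. The lowest DZ share was above the highest share elsewhere, also in DZ replicate 3, whose Tcf3 level was close to LZ. Tcf4 made up 21.0% to 22.6% in DZ, 28.3% to 33.9% in LZ and 30.3% to 33.7% in the Foxo1-deficient group, and Tcf12 made up 6.30% to 12.5%, 11.4% to 14.6% and 13.2% to 14.9%. Within the Id sum, Id2 made up 17.5% to 30.3% in the Foxo1-deficient group, 13.3% to 16.8% in LZ and 6.48% to 14.0% in DZ. Id3 exceeded Id2 by 2.30 to 4.70 times in the Foxo1-deficient group, 4.91 to 6.54 times in LZ and 6.14 to 14.4 times in DZ.

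Other helix-loop-helix genes that pair with E proteins or compete with them were mostly silent. Of 20 such genes 4 passed the filter, and the inhibitor gene Id4 was listed at 0 in all 9 libraries. Hes1, a repressor known as a target of Notch signaling, was listed at 0 in the 3 LZ libraries, at 0, 0.628 and 0.116 FPKM in DZ and at 9.11, 9.33 and 7.07 in the Foxo1-deficient libraries. It rose against LZ and DZ (limma adjusted p = 0.000569 and 0.000752), but it met the filter on low values only through the Foxo1-deficient libraries, where it is high, so it is left out of any count for the list. None of the other 3 tested genes (Lyl1, Bhlhe40 and Hes6) passed in any comparison, and 0 of the 4 passed for DZ minus LZ. Lyl1, a partner of E proteins in blood progenitors and named here after its values were seen, stood at 25.4, 41.4 and 25.0 FPKM in LZ, 30.8, 31.2 and 17.3 in DZ and 54.8, 49.5 and 49.3 in the Foxo1-deficient libraries. Its change was 0.97 against DZ (limma adjusted p = 0.0733) and 0.76 against LZ (limma adjusted p = 0.207).

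**Figure D5:**
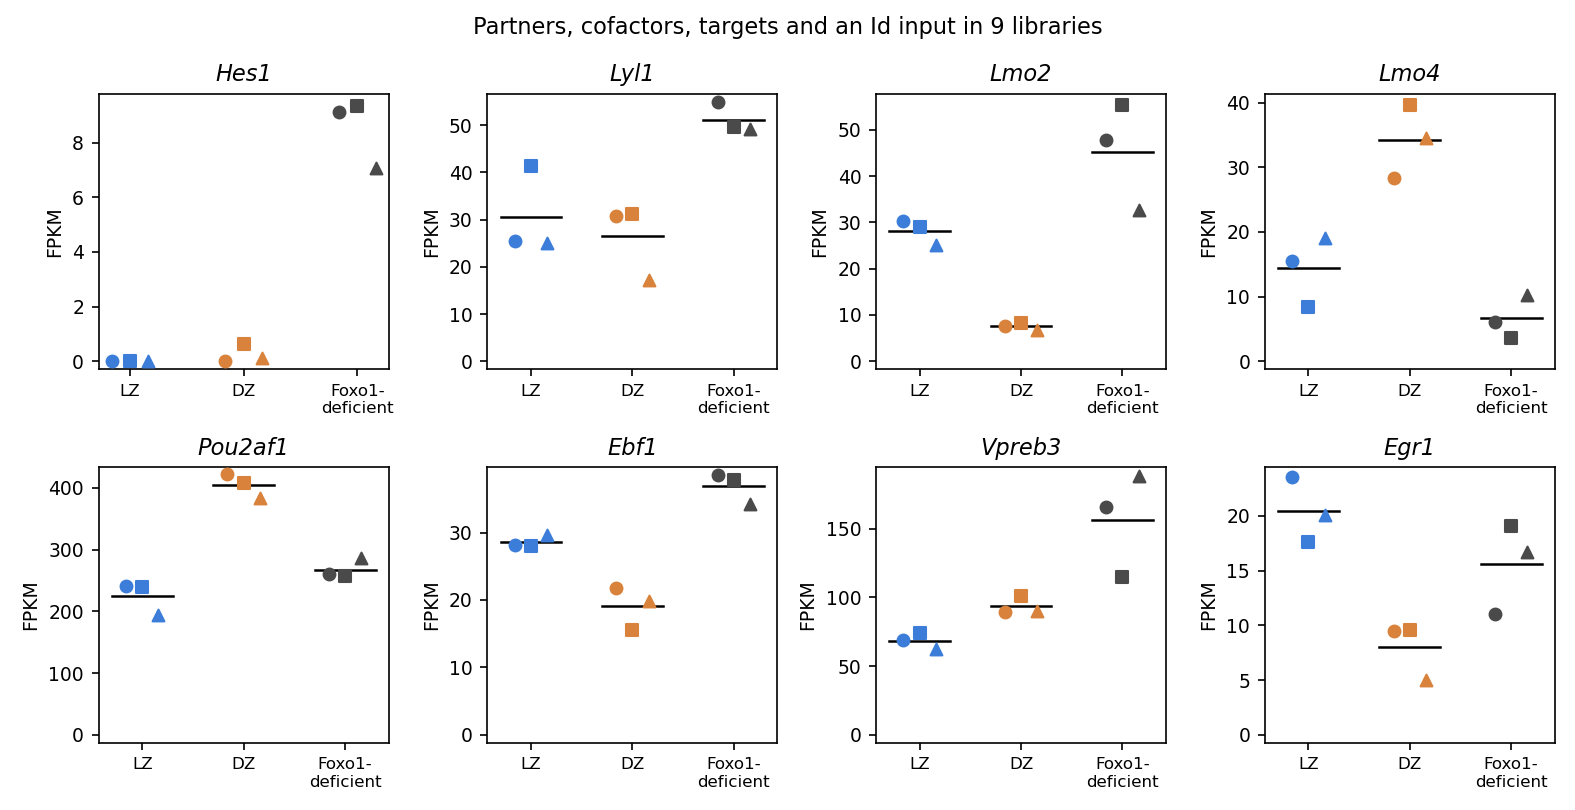
FPKM by library of 8 genes from the lists of partners, cofactors, targets and inputs, with a panel per gene. Points are libraries (shapes are replicates 1 to 3) and lines are group means, left out for Hes1, which is listed at 0 in LZ. Lmo2 is lowest and Lmo4 highest in DZ, and Hes1 is above 7 FPKM in the 3 Foxo1-deficient libraries only.

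Among the cofactors of E proteins, 2 LIM adaptor genes passed and the other 9 tested genes did not. Lmo2, which bridges E protein pairs to other DNA-binding factors, stood at 30.2, 29.1 and 25.1 FPKM in LZ, 7.61, 8.21 and 6.70 in DZ and 47.9, 55.4 and 32.6 in the Foxo1-deficient libraries. It fell by 1.77 from LZ to DZ on the log2 scale (limma adjusted p = 0.00283) and rose by 2.41 in the Foxo1-deficient group against DZ (limma adjusted p = 0.000258), with no call against LZ (0.64, limma adjusted p = 0.203). Lmo4, a LIM adaptor of the same family, had the opposite arrangement, at 15.5, 8.47 and 19.1 FPKM in LZ, 28.3, 39.6 and 34.5 in DZ and 6.10, 3.54 and 10.2 in the Foxo1-deficient libraries. It fell by 2.29 against DZ in the Foxo1-deficient group (limma adjusted p = 0.00674), while the change of 1.25 from LZ to DZ did not pass (limma adjusted p = 0.116). Of 13 cofactors 11 were tested, with 1 lower for DZ minus LZ, 0 called for Foxo1-deficient minus LZ and 1 in each direction for Foxo1-deficient minus DZ. Of all tested genes, 1.94%, 1.56% and 2.85% passed in these comparisons. The list's medians were -0.13, 0.09 and 0.14 in that order. The calls of Lmo2 and Lmo4 held without each library in turn. The myeloid sum and the mostly globin sum given above were highest in the Foxo1-deficient group, as Hes1 and Lmo2 were, whereas Lmo4 had its lowest mean there. The part of other cells in these values was not tested.

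Among known target genes of E proteins the calls were too few to read a direction from. Of 24 genes 15 were tested, with 1 higher and 1 lower for DZ minus LZ. For Foxo1-deficient minus LZ 1 was higher, and for Foxo1-deficient minus DZ 1 was higher and 1 lower. Of all tested genes, 1.94%, 1.56% and 2.85% passed in these comparisons. The medians were -0.17 for DZ minus LZ, 0.19 for Foxo1-deficient minus LZ and 0.20 for Foxo1-deficient minus DZ. Pou2af1, a B cell coactivator of octamer-binding factors, stood at 241, 239 and 195 FPKM in LZ, 423, 407 and 383 in DZ and 260, 257 and 286 in the Foxo1-deficient libraries. It rose from LZ to DZ by 0.85 (limma adjusted p = 0.00908) and fell by 0.59 in the Foxo1-deficient group against DZ (limma adjusted p = 0.0315), a call lost without any 1 DZ or Foxo1-deficient library (up to 0.123). Without the intensity trend of the fit the call of Pou2af1 between the zones was not made (limma adjusted p = 0.0764).

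Other target calls involved the Foxo1-deficient group. Vpreb3, a relative of the surrogate light chain genes, stood at 69.3, 74.2 and 62.0 FPKM in LZ and 166, 114 and 189 in the Foxo1-deficient libraries. It rose by 1.15 against LZ (limma adjusted p = 0.0122), a call lost without LZ replicate 1 or 3 (up to 0.0566). Ebf1, a factor of early B cell commitment, stood at 21.8, 15.6 and 19.9 FPKM in DZ and 38.6, 37.8 and 34.2 in the Foxo1-deficient libraries. It rose by 0.93 against DZ (limma adjusted p = 0.0162), a call lost without DZ replicate 2 or Foxo1-deficient replicate 1 or 2 (up to 0.0723). The surrogate light chain genes Igll1 and Vpreb1 were listed at 0 in all 9 libraries.

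Of 23 genes of the TGF-beta, BMP and Egr pathways that feed into Id gene transcription, 14 were tested. Of these, 1 passed, for DZ minus LZ, where 1.94% of all tested genes passed. Egr1, an immediate early gene induced by antigen receptor signaling, stood at 23.5, 17.6 and 20.1 FPKM in LZ, 9.50, 9.61 and 4.99 in DZ and 11.0, 19.0 and 16.7 in the Foxo1-deficient libraries. It fell by 1.28 from LZ to DZ (limma adjusted p = 0.0456), a call that held in 1 of 9 fits that left out 1 library (up to 0.148) and was lost with a pseudocount of 0.1, without the filter, with quantile normalization, with median centring, with only the compared groups, with a replicate block and without the intensity trend. The medians of this list were -0.21, -0.18 and 0.13. Of the 6 genes for turnover of E and Id proteins all were tested and 0 passed in any comparison, with medians of -0.12, -0.00 and 0.12. Usp1, a deubiquitinase that stabilizes Id proteins, was at 29.7 ± 2.10 FPKM in LZ, 33.2 ± 0.790 in DZ and 29.5 ± 2.99 in the Foxo1-deficient group (SD, n = 3 each). The next most abundant were Fzr1, an activator of the anaphase-promoting complex, at 21.3, 19.3 and 21.3 FPKM, and the ubiquitin ligase gene Stub1 at 17.0, 17.7 and 12.5.

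The tested genes most like each member were ranked by Pearson's r of log2(FPKM + 1) over the 9 libraries, which share the group differences, so r is given as a description only. For Tcf3 they were Ccrl1 (0.97), 2810417H13Rik (0.945), the cyclin gene Ccnd3 (0.943), Ube2j1 (0.937) and Anp32e (0.932). For Tcf4 they were Copa (0.968), B3gnt2 (0.961), Map3k12 (0.96), Gigyf2 (0.951) and St7l (0.95). For Tcf12 they were Zfp808 (0.922), S100a11 (0.921), Itgav (0.915), Lrig2 (0.913) and Inpp4b (0.91).

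For Id2 the most alike were the lysosomal gene Psap (0.974), the semaphorin gene Sema4d (0.974), St3gal1 (0.971), 4832428D23Rik (0.964) and A430033K04Rik (0.958). Psap was at 50.0 ± 1.29 FPKM in LZ, 38.1 ± 8.91 in DZ and 101 ± 5.21 in the Foxo1-deficient group (SD, n = 3 each). For Id3 they were Gsr (0.982), Ifitm1 (0.977), Clec7a (0.974), Ace (0.965) and Bahd1 (0.961). Clec7a, a receptor for fungal glucan on myeloid cells, was listed at 0 in the 6 wild-type libraries, as were Ifitm1 and Ace, and stood at 3.57, 3.88 and 1.04 FPKM in Foxo1-deficient replicates 1 to 3. Clec7a, Ifitm1 and Ace met the filter on low values only through the Foxo1-deficient libraries, where Id3 is high. Their high r with Id3 follows in part from that. In that group Clec7a and Ifitm1 (5.60, 6.95 and 1.53 FPKM) were lowest in replicate 3, as Id3 was, and the myeloid sum was highest there. What part myeloid cells had in these values was not tested.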

How the data were processed

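RNA was sequenced from 9 sorted samples, 3 per group. Cufflinks 2.1.1, TopHat2 2.0.8 and mm9 are named in the submitters' processing notes, with no role. Per the file headers, the authors deposited FPKM with confidence bounds for 23700 entries per library. The scaling total and any bias correction are not given in the sources used here, and depth is unknown, so fragments are estimates from the bounds. Entries with repeated symbols (716) and 7 genes with failed estimates were left out. Genes with FPKM of at least 1 in at least 3 libraries (10004) were tested with limma 3.58.1 (R 4.3.3), with an intensity trend, on log2(FPKM + 1), which understates changes of low genes. All 9 libraries entered 1 fit of group means, tests were two-sided, and p-values were Benjamini-Hochberg adjusted over all tested genes within each comparison. The code was tested on simulated data. Alternatives covered pseudocount, filter, scaling, samples in the fit, trend, replicate block and each library left out. The 6 genes were always named, with the genes of each list that passed (at most 4 per comparison, else up to 3 of highest FPKM), up to 3 per marker list and the 5 genes most like each member. Members and lists were chosen with earlier results of these data known. Some genes of the lists are not reported here by name.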

Additional observations from a re-analysis of the deposited data

How the results depend on the processing

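Of 255 values of member changes under other settings, 240 kept their direction and their side of the threshold. Id2 in Foxo1-deficient minus DZ passed in every setting run. Quantile normalization gave 1.43 (limma adjusted p = 0.0294) for Id2 and 0.83 for Id3 in Foxo1-deficient minus LZ, and median centring gave 1.38 and 0.75, all 4 past the threshold, as was Id3 without the filter at 0.74. Median centring also gave 0.67 for Tcf3 and 0.0909 for Id3 in DZ minus LZ, the latter reversed and not called. Without the intensity trend Id3 in Foxo1-deficient minus DZ was 0.84 (limma adjusted p = 0.0626). Leaving out 1 library at a time, the changes ran from 1.23 to 1.51 for Id2 and from 0.63 to 0.86 for Id3 in Foxo1-deficient minus LZ, and from 0.73 to 0.96 for Id3 in Foxo1-deficient minus DZ.

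The balance, on the log2 scale, was 1.18 without Id3 and -0.0900 without Tcf3 for DZ minus LZ. For Foxo1-deficient minus LZ it was -0.24 as a mean of log2 values and -1.11 without Id3. For Foxo1-deficient minus DZ it was -0.69 as a mean of log2 values, -2.29 without Id3 and -0.52 without Tcf3. The means of log2 values count the untested Id1 as much as Id2 or Id3. Leaving out 1 library gave 0.27 to 0.54, -0.79 to -0.53 and -1.15 to -0.98 for the 3 differences.

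Genes called for DZ minus LZ were 194, against 109 without the filter, 122 with only the compared groups, 79 without the trend and 72 to 210 with 1 library left out. For Foxo1-deficient minus LZ they were 156, against 99 with a pseudocount of 0.1, 58 with only the compared groups and 48 to 145 with 1 library left out. For Foxo1-deficient minus DZ they were 285, against 127 to 246. Of the called genes, 28.9% were higher for DZ minus LZ (42.8% with quantile normalization and 56.8% with median centring), and 73.7% for Foxo1-deficient minus DZ (60.8% and 44.6%). The cause was not tested.

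Deviations from the group means correlated at -0.07 to 0.08 between samples of the same replicate number and at -0.11 to 0.05 between other samples. These weak values do not exclude pairs. The labels do not say that the numbers mark pairs, so the main fit did not use them. With a replicate block the counts were 161, 137 and 221, and Id2 and Id3 in Foxo1-deficient minus DZ had limma adjusted p of 0.0122 and 0.03. The block changed the call of no member, and it ended that of Egr1 in DZ minus LZ (limma adjusted p = 0.0738).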

Other observations

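The deposited FPKM lay above its own upper confidence bound for 4.18% to 5.75% of tested genes above 0 in each library, and never below the lower bound. Among the members this held for Id3 alone.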
